A study of Homo sapiens with 192 samples.

Results

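Chromatin at 10 genes that define blood cells was examined in single nuclei of HAP1, a near-haploid adherent human cell line that derives from KBM-7, a line of chronic myeloid leukemia. The genes are GATA2, TAL1, LMO2, RUNX1, MYB, SPI1, CEBPA, KLF1, IKZF1 and PTPRC, 10 of the 20033 protein-coding genes of GENCODE 44. They were chosen by name as hematopoietic identity genes and not by their values, although earlier results of these data were known. A promoter feature was an ATAC feature (a called peak of 1001 bp) within 1000 bp of any annotated transcription start of the gene, and the territory of a gene was its body with 50 kb on either side. By this rule 53 of the 80971 features lay in the territories. Of the 77053 features seen in at least 2 cells, which were kept, 49 lay there, and 13 of them were promoter features of the 10 genes.

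The series holds HAP1 cells of plate-based snATAC-seq, 96 on each of 2 plates, from a pool of nuclei with and without a CASB label, an oligonucleotide tag fixed to the membrane by a lectin. No treatment is named that differs between the cells, the label of a given cell is not known here, and each plate therefore counts as 1 mixed sample of 1 cell line. The counts summed to 241927 read pairs on plate 1 and 241240 on plate 2, and cells with more than 300 peaks passed, 83 on plate 1 and 79 on plate 2. Passing cells held between 345 and 15351 read pairs, with a median of 2067.5. The cells are not replicates, and no test was made. The exact (Clopper-Pearson) 95% intervals given with shares cover counting error only, since each plate is 1 sample without a replicate. Reads carried no molecular identifiers.

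Wells were not independent in these data. Of the 25114 peaks seen in exactly 2 cells, 17777 (70.8%) were seen in both wells of 1 of 48 pairs (cells 37 to 48 with 73 to 84 and 73 to 84 with 85 to 96, same plate and position), although these make up 0.262% of all pairs of cells. Why they shared peaks was not tested. Paired wells held 71 passing cells. Values without them, over the other 91, are given for each gene with a promoter feature and for some single features. They are not given for the lists of other genes. Of all protein-coding genes, 25.5% were seen in 10 or more passing cells, and 9.7% in 10 or more outside the paired wells.

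In blood formation, a small set of transcription factors keeps stem and progenitor cells in their state and then directs them into lineages. GATA2, TAL1, LMO2, RUNX1 and MYB act in stem and progenitor cells, SPI1 (PU.1) and CEBPA drive the myeloid branch, KLF1 the red cell branch and IKZF1 (Ikaros) the lymphoid branch. PTPRC encodes CD45, the phosphatase on the surface of nearly all nucleated blood cells. Active promoters and enhancers of such genes are usually open to the Tn5 transposase, whose cuts are what ATAC-seq counts.

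The 7 stretches printed here, from the GRCh38 (hg38) reference, are those the results turn on: the most-seen promoter features of GATA2, RUNX1 and CEBPA, the feature at the canonical start of MYB, and the 3 features away from any start that were seen in 10 or more passing cells. For GATA2, whose 3 most-seen features tied, the one at the canonical start is shown. Each is a run of 300 bases of the feature free of annotated exons, 5′ to 3′ on the strand named. Capitals mark matches on either strand to AGATAA (bound by GATA factors), TGTGGT (RUNX factors), CCGGAA (ETS factors, the family of SPI1) or TGANTCA (AP-1).
GATA2, chr3:128492599-128492898, minus strand: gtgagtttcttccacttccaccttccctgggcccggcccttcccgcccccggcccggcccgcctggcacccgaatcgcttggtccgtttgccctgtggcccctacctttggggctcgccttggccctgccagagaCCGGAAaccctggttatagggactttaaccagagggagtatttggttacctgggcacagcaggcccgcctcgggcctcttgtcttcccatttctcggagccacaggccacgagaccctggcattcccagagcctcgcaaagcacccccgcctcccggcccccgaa
RUNX1, chr21:34888691-34888990, minus strand: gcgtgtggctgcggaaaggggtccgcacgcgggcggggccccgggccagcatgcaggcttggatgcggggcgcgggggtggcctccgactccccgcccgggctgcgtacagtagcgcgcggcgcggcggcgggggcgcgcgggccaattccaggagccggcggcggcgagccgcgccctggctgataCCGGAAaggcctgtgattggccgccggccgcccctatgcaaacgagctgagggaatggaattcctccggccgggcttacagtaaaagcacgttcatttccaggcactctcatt
CEBPA, chr19:33302535-33302834, minus strand: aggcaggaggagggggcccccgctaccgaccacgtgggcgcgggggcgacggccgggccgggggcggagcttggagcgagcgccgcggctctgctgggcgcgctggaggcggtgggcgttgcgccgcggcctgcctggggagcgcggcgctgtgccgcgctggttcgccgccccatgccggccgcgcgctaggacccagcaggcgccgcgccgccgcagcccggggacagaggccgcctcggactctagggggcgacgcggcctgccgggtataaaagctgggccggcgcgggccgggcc
MYB start, chr6:135181008-135181307, plus strand: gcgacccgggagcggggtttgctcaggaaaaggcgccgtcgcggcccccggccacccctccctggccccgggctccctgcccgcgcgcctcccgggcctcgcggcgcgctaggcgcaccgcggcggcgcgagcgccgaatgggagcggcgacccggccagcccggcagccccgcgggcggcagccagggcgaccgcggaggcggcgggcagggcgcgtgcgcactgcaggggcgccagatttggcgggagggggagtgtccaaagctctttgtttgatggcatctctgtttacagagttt
MYB downstream, chr6:135250802-135251101, plus strand: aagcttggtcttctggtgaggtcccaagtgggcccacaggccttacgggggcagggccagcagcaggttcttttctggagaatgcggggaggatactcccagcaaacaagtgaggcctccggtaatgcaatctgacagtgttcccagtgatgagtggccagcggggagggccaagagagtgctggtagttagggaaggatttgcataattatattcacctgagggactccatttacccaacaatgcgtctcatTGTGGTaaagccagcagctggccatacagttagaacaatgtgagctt
IKZF1 downstream, chr7:50431902-50432201, plus strand: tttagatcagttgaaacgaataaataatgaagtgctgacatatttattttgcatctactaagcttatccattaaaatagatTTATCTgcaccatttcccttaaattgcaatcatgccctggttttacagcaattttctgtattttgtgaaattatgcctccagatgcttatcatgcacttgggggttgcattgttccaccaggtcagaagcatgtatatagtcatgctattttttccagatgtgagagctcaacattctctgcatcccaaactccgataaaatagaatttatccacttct
PTPRC intron, chr1:198681855-198682154, plus strand: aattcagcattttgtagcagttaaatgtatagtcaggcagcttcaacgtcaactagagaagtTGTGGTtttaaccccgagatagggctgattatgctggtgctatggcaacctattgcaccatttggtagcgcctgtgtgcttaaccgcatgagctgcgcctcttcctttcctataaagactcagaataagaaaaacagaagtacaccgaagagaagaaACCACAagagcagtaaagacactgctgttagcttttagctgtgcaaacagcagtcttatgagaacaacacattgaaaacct

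The GATA2 stretch lies in an intron just inside the gene, and those of RUNX1, CEBPA and MYB end at the base before a start. All 4 were rich in GC, with 65.7% for GATA2, 71.3% for RUNX1, 81% for CEBPA and 75.7% for the MYB start, and they held 18, 38, 48 and 42 CpG dinucleotides. The 3 distal stretches were poorer, with 53% for MYB, 35.3% for IKZF1 and 42.7% for PTPRC, and held 5, 2 and 6 CpG.

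The starts of the blood identity genes were seen in few cells, and 7 of the 10 had at least 1 promoter feature, against 55.5% of all protein-coding genes. The promoter features were seen in 10 or more passing cells for 2 of the 10 genes, GATA2 and RUNX1, against 25.5% of protein-coding genes. The median over the 10 genes was 4 passing cells (2.47%), and over all protein-coding genes 3. The share with a feature lay above its background and the share seen in 10 or more cells below it, and with 10 genes a single gene moves either share by 10 percentage points.

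**Figure D1:**
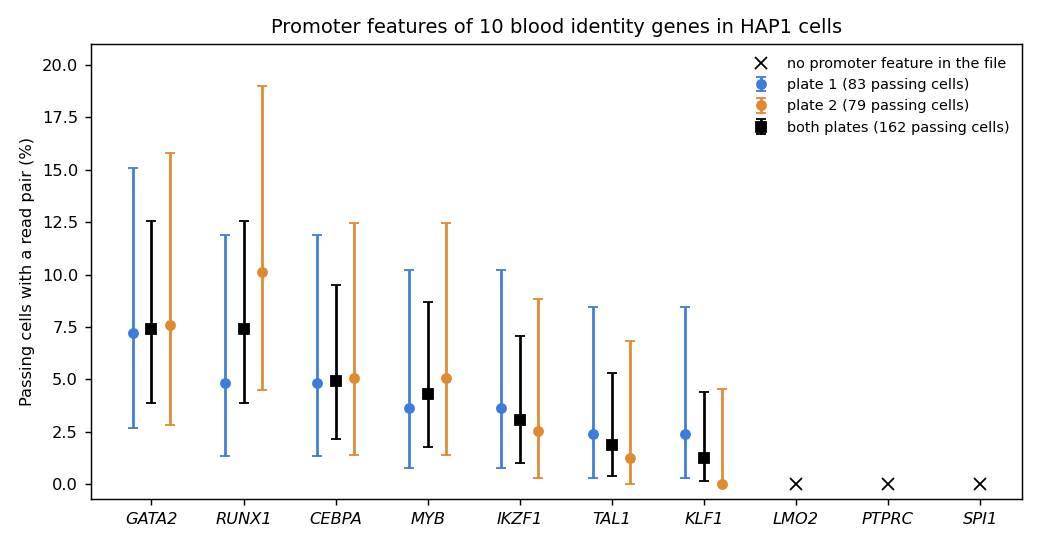
The percentage of passing cells with a read pair in any promoter feature of each gene, for plate 1, plate 2 and both, with exact 95% intervals as bars that cover counting error only; crosses mark genes with no promoter feature in the data. GATA2 and RUNX1 were highest at 7.41%, the 7 intervals over both plates overlapped, and LMO2, PTPRC and SPI1 had no feature.

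GATA2 (chromosome 3, 128479427 to 128493201, minus strand) maintains stem and progenitor cells and had 4 promoter features, the most of the 10 genes. They were seen in 12 passing cells (7.41%, 95% interval 3.89 to 12.6%), 6 on each plate. The 4 features summed to 20 read pairs, where a read pair in the overlap of 2 of them counts in both. The feature over the canonical start (chr3:128492490-128493490) was seen in 5 cells, 1 on plate 1 and 4 on plate 2. A pair of overlapping features at an internal start, which is also the start region of the antisense gene GATA2-AS1, was likewise seen in 5 cells each, 3 on plate 1 and 2 on plate 2. A feature 11.5 kb downstream of the canonical start (chr3:128481195-128482195) was seen in 3. Without paired wells GATA2 was seen in 4 of 91 cells (4.40%), the feature over its canonical start in 3 of 91, and each feature of the overlapping pair in 0 of 91. ATAC-seq has no strand, so the signal of that pair cannot be assigned to GATA2 or GATA2-AS1. The remaining feature of the territory, 8.86 kb upstream, was seen in 2 cells, both in paired wells.

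RUNX1 (chromosome 21, 34787801 to 36004667, minus strand), which blood stem cells need in order to form, was also seen in 12 passing cells (7.41%, 95% interval 3.89 to 12.6%), 4 on plate 1 and 8 on plate 2, with 14 read pairs. Both of its promoter features lay at the proximal promoter, 160.6 and 159.4 kb downstream of the canonical distal start. The one over the start at 34888690 (chr21:34888220-34889220) was seen in 8 cells, and the one at the start at 34889790 in 4. No feature lay within 1000 bp of the canonical start at 35049302, and the nearest, 1606 bp away, was seen in 3 passing cells, all on plate 2. Without paired wells RUNX1 was seen in 7 of 91 cells (7.69%).

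The long body of RUNX1 held a further 9 features. The most-seen were an intronic feature 16823 bp from the nearest start (chr21:34906113-34907113), in 8 cells, 1 on plate 1 and 7 on plate 2, and another 6632 bp from a start (chr21:34865710-34866710), in 7 cells, 4 and 3 by plate. Without paired wells each was seen in 3 of 91 cells.

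MYB (chromosome 6, 135181308 to 135219173, plus strand), a factor of dividing progenitors, was seen in 7 passing cells (4.32%, 95% interval 1.76 to 8.70%), 3 on plate 1 and 4 on plate 2, with 11 read pairs. The feature over its canonical start was seen in 4 cells and one 1.69 kb into the gene in 5. Without paired wells MYB was seen in 5 of 91 cells (5.49%).

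TAL1 (chromosome 1, 47216290 to 47232225, minus strand), a basic helix-loop-helix factor that binds DNA together with GATA factors, had 1 promoter feature (chr1:47227498-47228498), seen in 3 passing cells (1.85%, 95% interval 0.384 to 5.32%), 2 on plate 1 and 1 on plate 2. Its middle lay 1455 bp from the nearest start, and no feature lay within 3727 bp of the canonical start. One cell gave 4 of its 6 read pairs. None of the 3 cells was in a paired well, so without them TAL1 was seen in 3.30% of 91 cells. Elsewhere in the territory, the start of the non-coding genes CYP4A22-AS1 and LINC00853 was seen in 7 cells and a feature 7.63 kb past the end of TAL1 in 5. LMO2 (chromosome 11, 33858576 to 33892076, minus strand), the bridging protein of the complex that TAL1 forms with GATA factors, had no promoter feature. Its territory held a single feature, 23.2 kb past the gene and seen in 2 cells. The nearest base of that feature lay 56243 bp from the canonical start, and features outside the territory were not looked at.

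Of the myeloid factors, CEBPA (chromosome 19, 33299934 to 33302534, minus strand) had 1 promoter feature (chr19:33302124-33303124), seen in 8 passing cells (4.94%, 95% interval 2.16 to 9.50%), 4 on each plate. It is shared with the divergent transcript CEBPA-DT and was the only feature in the 102.6 kb territory. Without paired wells it was seen in 4 of 91 cells (4.40%), and all 8 were among the deeper 81 passing cells. SPI1 (chromosome 11, 47354860 to 47378547, minus strand) had no feature at its starts, elsewhere in its body or in its flanks away from starts. Both features of its territory lay at starts of neighbours, the zinc transporter gene SLC39A13 (8 cells) and the proteasome gene PSMC3 (5 cells), and the nearer was 29.4 kb from the SPI1 start. Enhancers of these genes that act in myeloid cells are known at about 17 kb upstream of SPI1 and 42 kb downstream of CEBPA, and 0 features lay within 3 kb of either point.

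KLF1 (chromosome 19, 12884422 to 12887201, minus strand), the activator of the adult beta-globin gene, had 1 promoter feature, 678 bp upstream of its start, seen in 2 passing cells (1.23%, 95% interval 0.15 to 4.39%). Both were on plate 1, and 0 of 79 cells on plate 2 had it, where the upper bound is 4.56%. Without paired wells KLF1 was seen in 1 of 91 cells (1.10%). The other features of its territory were starts of neighbouring genes, such as that of DNASE2 in 4 cells and that of GCDH in 3.

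IKZF1 (chromosome 7, 50304068 to 50405101, plus strand) was seen at its starts in 5 passing cells (3.09%, 95% interval 1.01 to 7.06%), 3 on plate 1 and 2 on plate 2, through 2 features that overlap slightly. The one over the canonical start was seen in 3 cells, all on plate 1, and the one upstream in 2, both on plate 2. Without paired wells IKZF1 was seen in 2 of 91 cells (2.20%), and the upstream feature in 0. PTPRC (chromosome 1, 198638457 to 198757476, plus strand) had no promoter feature although 19 starts are annotated for it. The feature nearest to its canonical start lay 12.8 kb inside the gene. Another feature (chr1:198699201-198700201), seen in 6 cells, had its middle 2820 bp from an internal start.

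The 7 intervals over both plates all overlapped, so the order of the genes with a promoter feature was not resolved at this depth. Of all 10 genes, 7 were seen in at least 1 passing cell outside the paired wells, against 51.7% of all protein-coding genes. None of the 10 reached 10 cells there, against 9.7% of all protein-coding genes. No cell that failed the cutoff had a read pair in a promoter feature of the 10 genes.

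The number and base composition of starts differed between the genes. Among protein-coding genes with at least 10 annotated starts, 73.9% had a promoter feature and 37.6% were seen in 10 or more passing cells. GATA2, RUNX1, MYB, IKZF1 and PTPRC belong to these, with 10, 16, 11, 18 and 19 starts. By the CpG content of the canonical start, TAL1, MYB, CEBPA and IKZF1 were high, GATA2 intermediate, and SPI1, RUNX1, KLF1, LMO2 and PTPRC low. Among all protein-coding genes, 73% of those with a high, 63.2% with an intermediate and 20.5% with a low CpG start had a promoter feature. Weighted to the classes of the 10 genes, the background was 45.8% with a promoter feature and 20.0% seen in 10 or more cells. All 3 genes without a promoter feature were of the low class, while all 4 of the high class had one.

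Of the features within 1000 bp of a start of the 10 genes, none of the 13 alone reached 10 passing cells, against 28.6% of all features at starts of protein-coding genes. They were seen in between 2 and 8 cells, with a median of 4, against a median of 6 for those 15720 features. GATA2 and RUNX1 passed 10 cells only when the cells of their 4 and 2 features were joined, each cell counted once. Counted at the canonical start alone, GATA2 was seen in 5 cells (3.09%) and RUNX1, TAL1, SPI1, LMO2 and PTPRC had no feature.

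The territories held features at starts and away from them. Of the 49 features, 13 were at starts of the 10 genes, 9 at starts of other genes, 16 elsewhere in gene bodies and 11 elsewhere in the flanks. Of the 27 in bodies and flanks, 3 were seen in 10 or more passing cells, against 7.45% of all features away from starts. These 3 were near MYB, IKZF1 and PTPRC, and the only other feature of the 49 seen in 10 or more cells was at the start of FIGNL1 (14 cells). A count of 3 of 27 is near the background, and the 3 are described for their position.

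**Figure D2:**
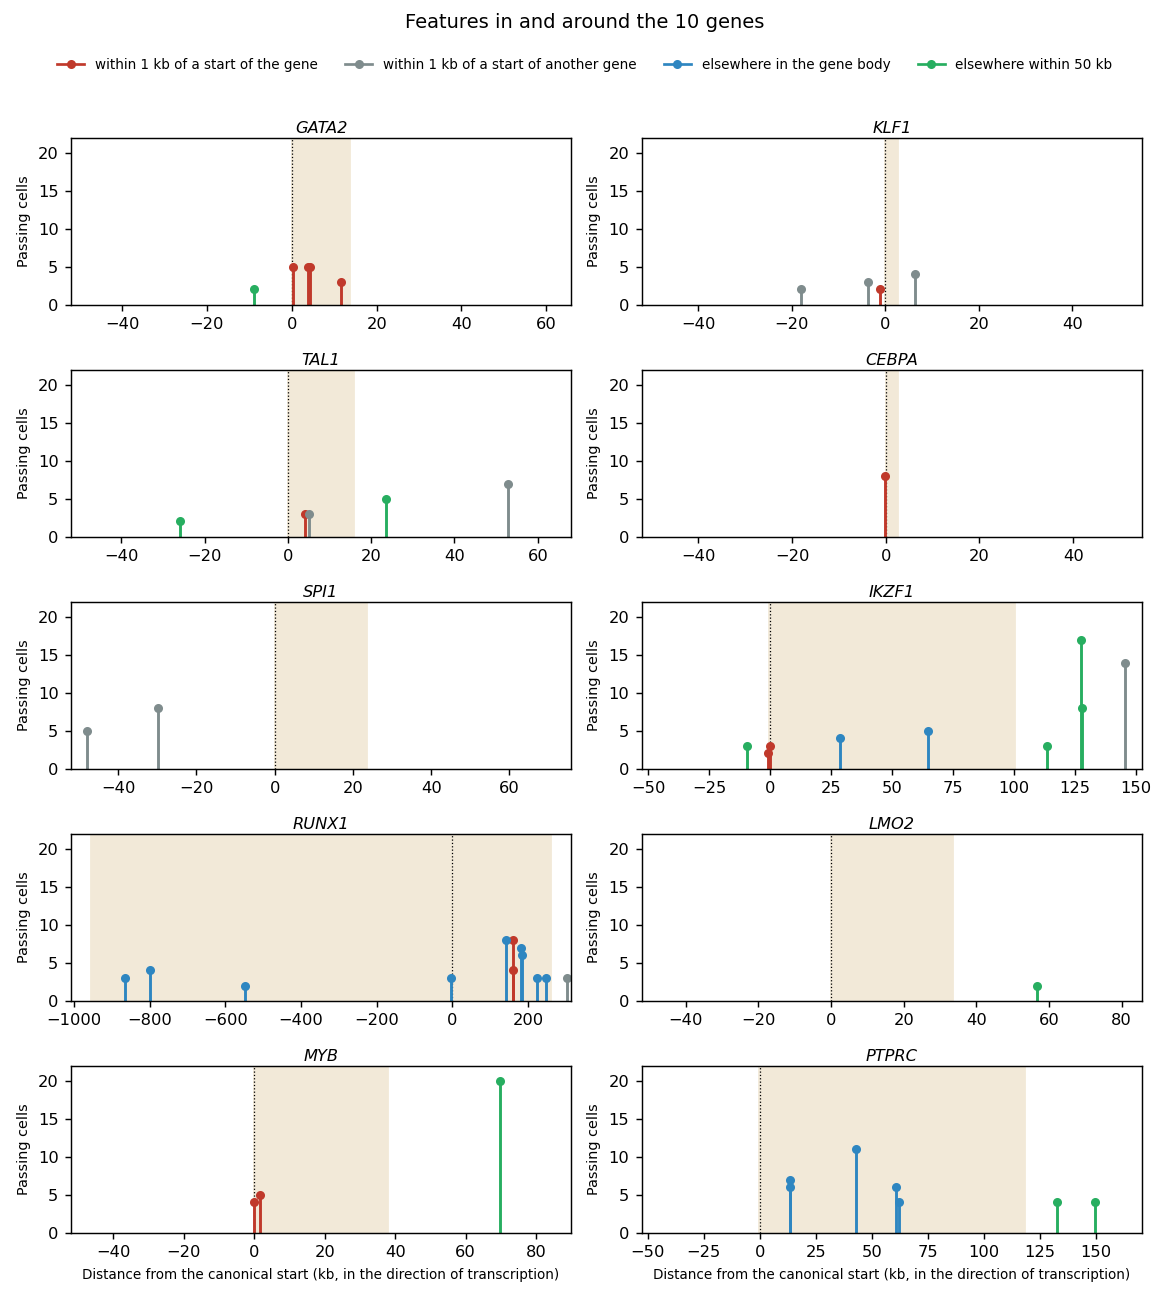
Passing cells with a read pair in each feature of the 10 territories (vertical axis) by the distance of its middle from the canonical start in kb, in the direction of transcription (horizontal axis); shading marks the gene body, and colours mark features at starts of the gene, at starts of other genes, elsewhere in the body and elsewhere within 50 kb. The highest stems are the feature past MYB (20 cells) and the one past IKZF1 (17 cells), while CEBPA and LMO2 have 1 feature each.

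The feature past MYB (chr6:135250452-135251452) lay 31.8 kb beyond the end of the gene, between MYB and AHI1, a gene of the primary cilium. It was seen in 20 passing cells (12.3%, 95% interval 7.71 to 18.4%), 10 on each plate, with 31 read pairs, and more often than 98.1% of all kept features. This feature was the most-seen of the 49, so a high rank follows in part from how it was picked. Without paired wells it was seen in 13 of 91 cells (14.3%), so its level did not rest on them. Its printed stretch held 1 match to TGTGGT. The 2 features at MYB starts, seen in 4 and 5 cells, were lower on both plates.

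The feature past IKZF1 (chr7:50431552-50432552) lay 26.9 kb beyond the gene, between IKZF1 and FIGNL1, which encodes a DNA repair protein. It was seen in 17 passing cells (10.5%, 95% interval 6.23 to 16.3%), 10 on plate 1 and 7 on plate 2. Without paired wells it was seen in 9 of 91 cells (9.89%). An overlapping feature next to it was seen in 8 cells, and a read pair in the overlap counts in both. The start of FIGNL1 itself, in the same flank, was seen in 14 cells (8.64%), 7 on each plate, and without paired wells in 7 of 91 (7.69%).

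Inside PTPRC, an intronic feature 42965 bp from the canonical start (chr1:198681505-198682505) was seen in 11 passing cells (6.79%, 95% interval 3.44 to 11.8%), 6 on plate 1 and 5 on plate 2. Its stretch held 2 matches to TGTGGT. Without paired wells it was seen in 4 of 91 cells (4.40%), against 7 of the 71 in paired wells. The next most-seen feature of the gene, 13.3 kb from the canonical start, was seen in 7 passing cells, of which 6 were in paired wells. PTPRC thus had 5 features in its body and 2 past its end, all away from starts.

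Per 100 kb, the territories held between 0.749 features at LMO2 and 4.48 at IKZF1, against a median of 2.74 over the territories of all protein-coding genes, and 5 of the 10 genes were above that median. LMO2, RUNX1 (0.911) and CEBPA (0.975) were lowest. The RUNX1 territory of 1317 kb includes a long stretch of annotated body upstream of the canonical start. Counting only features away from starts, the values ran from 0 for SPI1, KLF1 and CEBPA to 3.20 for PTPRC, against a median of 0.975, and TAL1, IKZF1 and PTPRC were above it.

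The middle 300 bases of the features were searched for the 4 motifs on both strands. AGATAA was in 0 of 13 features at starts of the 10 genes, against 9.09% of all kept features at starts, and in 3 of 27 in bodies and flanks, against 21.6% of those away from starts. TGTGGT was in 1 of 13, against 12.5%, and in 8 of 27, against 20.4%. CCGGAA was in 1 of 13, against 15.98%, and in 0 of 27, against 2.17%. TGANTCA was in 0 of 13, against 6.13%, and in 4 of 27, against 11.7%. The 1 start feature with CCGGAA was the proximal RUNX1 feature, which held 2 matches, one of them in the printed stretch, and the GATA2 match lies outside the middle of its feature. The median GC content was 67% at starts of the 10 genes and 43.3% in bodies and flanks, against 60% and 40.3% for all kept features at and away from starts. A match is a description of the letters, not of a bound site.

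The 10 genes were set beside lists of other genes by the same rule, as counts without a test. Among 26 other blood transcription factors, 17 had a promoter feature and 7 (26.9%) were seen in 10 or more passing cells. These were BCL11A (33 cells), FLI1 (25), MEIS1 (19), EBF1 (19), MECOM (18), IKZF2 (15) and HOXA9 (13). The 7 were named because they reached 10 cells, so they do not rank the list against the 10 identity genes. HOXA9 (95% interval 4.34 to 13.3%) was near GATA2 and RUNX1 (12 cells each, 3.89 to 12.6%). The median of the list was 4 passing cells, the same as for the 10 genes. The remaining 9 of the 26 had no promoter feature.

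Among 27 blood surface and effector genes, 7 had a promoter feature and 2 (7.41%) were seen in 10 or more cells, namely KIT, the receptor for stem cell factor, and BTK, a kinase of B cells, with 16 each. ITGA2B followed with 6. The median of the list was 0, and 21 of its 27 genes had a low CpG start. A set of 5 blood markers chosen by name, PTPRC, CD34, CD33, MPO and SPI1, had no promoter feature. Of all protein-coding genes 55.5% had one, and of those with a low CpG start 20.5%. The 5 are not independent of the values above. PTPRC and SPI1 are 2 of the 10 genes, and CD34, CD33 and MPO belong to this list, where 7 other genes had a promoter feature. All but CD34 had a low CpG start.

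Among 24 adhesion and mesenchymal genes, 19 had a promoter feature and 13 (54.2%) were seen in 10 or more cells, with a median of 10. They were led by ITGAV (36 cells), VIM (26) and WWTR1 (25). The adherent cell markers VIM, CDH2, ITGB1, CAV1 and YAP1, chosen by name, were seen in 26, 15, 6, 22 and 15 cells, while 5 other genes of the list (SPARC, VCL, TJP1, AXL and LGALS1) had no promoter feature. Among 20 housekeeping genes, 18 had a promoter feature and 11 (55%) were seen in 10 or more cells, among them PGK1 (41) and EEF1A1 (23). Among 26 transcription factors of other lineages, 14 had a promoter feature and 6 (23.1%) were seen in 10 or more cells, led by POU3F2 (46), FOXA1 (22) and PAX6 (20). The 10 genes had 2 of 10 (20.0%), against 25.5% of all protein-coding genes and 20.0% of these weighted to the CpG classes of the 10. A low CpG start was held by 3 of the 24 adhesion genes, 0 of the 20 housekeeping genes and 5 of the 10 genes. Of all protein-coding genes, 5.38% with a low and 35.7% with a high CpG start were seen in 10 or more cells. The lists thus differ in CpG class, and what set their shares apart was not tested. At canonical starts alone the 10 genes had 0%, against 21.6% of all protein-coding genes.

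**Figure D3:**
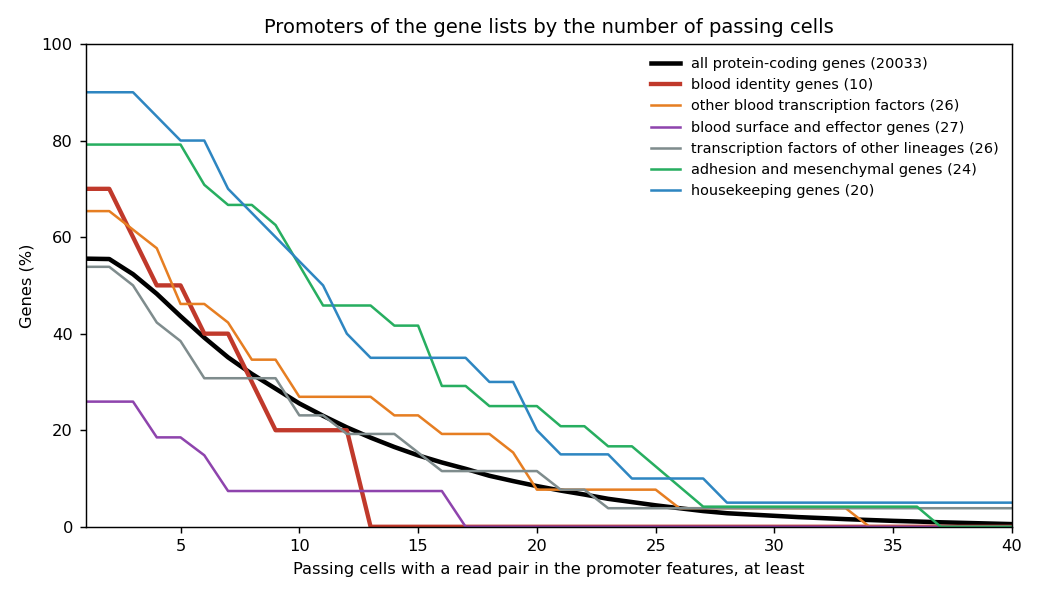
The percentage of genes of each list (vertical axis) whose promoter features were seen in at least the number of passing cells on the horizontal axis, with the number of genes in each list in brackets. The blood identity genes start at 70% and end at 12 cells, the housekeeping and adhesion lists lie above all protein-coding genes up to 36 cells, and the blood surface and effector genes lie below.

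A missing feature does not show closed chromatin at this depth. The housekeeping genes PSMB4 and UBB, and TJP1 and VCL of the adhesion list, had no promoter feature either. The name of the gene set speaks of loss, and KBM-7 or blood cells, which a loss would be measured against, were not analysed here.

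Across cells, the promoter features of the 10 genes were sampled thinly. Of the passing cells of both plates, 40 (24.7%, 95% interval 18.3 to 32.1%) had a read pair in a promoter feature of at least 1 of the 10 genes, 19 on plate 1 and 21 on plate 2. Of these, 31 had 1 gene and 9 had 2, and 0 had 3 or more. The cells with a gene were deeper, with a median of 4182 read pairs against 1647.5 in the others. Of the 81 deeper passing cells, 32 (39.5%, 95% interval 28.8 to 51%) had a gene, and of the 81 shallower ones, 8 (9.88%, 95% interval 4.36 to 18.5%). The deeper 81 held 83.7% of the 49 detections of a gene in a cell and 81% of the read pairs. RUNX1 was seen in 4 of the shallower cells, GATA2, MYB, KLF1 and IKZF1 in 1 each, and CEBPA and TAL1 in 0. With peaks of paired wells counted once, 45 detections remained.

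**Figure D4:**
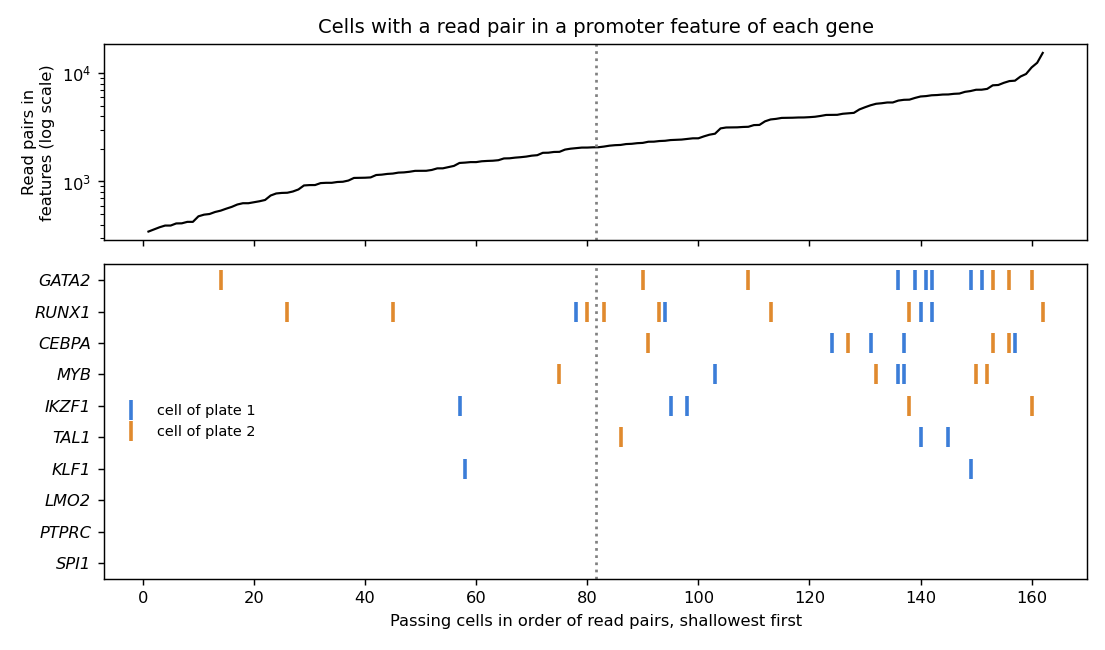
The passing cells of both plates in order of their read pairs in features, shallowest first, with the read pairs on a log scale (top) and a tick for each cell with a read pair in a promoter feature of a gene (bottom), coloured by plate; the dotted line parts the shallower 81 from the deeper 81. Ticks gather on the deeper side, and no cell has more than 2.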

How the data were processed

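Nuclei of HAP1 cells were profiled by plate-based snATAC-seq. The authors aligned reads to hg38 with bowtie2, took out mitochondrial, duplicated and poorly mapped reads, pooled all cells for MACS2 peak calling and ran featureCounts (version 1.6.0). The deposited table holds raw counts of read pairs, not normalized, and a pair counts in every feature it overlaps. Here the counts were binarized, peaks seen in at least 2 cells were retained (77053), and a cell passed when it had more than 300 of them. The features and the reference share 24 chromosome names. Starts came from GENCODE 44. CpG classes used 500 bp on either side of the canonical start (high: observed over expected above 0.75 and GC above 55%; low: below 0.48). The genes and lists were chosen with earlier results of these data known, and the named features followed a rule: all promoter features of the 10 genes and the 2 other most-seen features of each territory, and in each list the 3 most-seen genes and, in blood lists, all seen in 10 or more cells. One gene that this rule names is not reported here. Blood and adherent cell markers were chosen by name from among the 10 genes and the genes of the lists. Genes without a feature were named after their values were seen. A loose pattern for CTCF was also searched after the data were seen, and its matches, few in every class of feature, were left out because the pattern was a poor match to the factor's known site. Scripts were tested on simulated data. Python 3.11.15 was used with pysam 0.24.0, samtools 1.23.1, SciPy 1.17.1, NumPy 2.4.6 and pandas 2.3.3. No doublet caller was run, since nuclei were sorted singly.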

Additional observations from a re-analysis of the deposited data

How the results depend on the processing

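The main results are counts, shares and a median, which have no sign that could reverse. Of the 62 alternatives, 34 kept them within 1.5 times (counts and shares of genes) or within a 95% interval (the median share). That interval covers counting error only and not the spread over genes. By it, a median share of 0.926% still counted as kept against 2.47%. The 7 genes with a promoter feature became 4 with features seen in at least 5 cells. The share of all protein-coding genes under that filter is not given. With the feature's middle within 1000 bp, an alternative chosen after seeing the data, they were 5, and TAL1 and KLF1 were lost. The 2 genes seen in 10 or more passing cells became 0 without paired wells (91 cells), after thinning to 600 read pairs, on plate 1 or plate 2 alone, at canonical starts, by the most-seen single feature and at a threshold of 20 cells. They became 1 without features near a start of another gene and 5 at a threshold of 5 cells. Fewer cells lower such a count by construction.

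The median of 2.47% became 0.343% after thinning and 0.617% at canonical starts, was 0.926% when the feature had to contain a start and 1.54% without features near a start of another gene, and was 0.118 in read pairs per 10000. The 49 features became 28 in gene bodies alone and 22 when seen in at least 5 cells. Features seen outside the paired wells, also chosen after seeing the data, were 38.

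The shares of genes seen in 10 or more cells fell in several lists. At canonical starts the 10 genes had 0%, other blood factors 15.4%, blood surface and effector genes 3.70% and factors of other lineages 15.4%, against 50% for adhesion, 40% for housekeeping and 21.6% for all protein-coding genes. Without features near a start of another gene, the values were 10.0%, 15.4%, 3.70% and 11.5% in the same order, and 20.8% for adhesion, 35% for housekeeping and 12.8% for all protein-coding genes. When the feature had to contain a start, other blood factors had 11.5%. Over all annotated genes the share was 11.3%. Of 110 single-gene values, 97 held and 13 moved, 5 of them by thinning. The values that held include all those of SPI1, LMO2 and PTPRC. These genes had no promoter feature, so their values were 0 in every setting and could not move.

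No paired analysis was possible because no result came from a test. At a median of 2067.5 read pairs per passing cell, a cell without a read pair in a feature is not shown to be closed there.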
